A study of Mus musculus with 4 samples.

Results

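The small proline-rich (SPRR) genes encode short cytosolic proteins of stratified epithelium. Of 19938 genes with a named probe set on the arrays, 10 are listed members of the family, chosen by gene symbol: Sprr1a, Sprr1b, Sprr2d, Sprr2e, Sprr2f, Sprr2g, Sprr2h, Sprr2i, Sprr2j-ps and Sprr3. All 10 were found, each with 1 probe set of its own, so 2 Sprr1 genes, 7 Sprr2 genes and Sprr3 could be followed. Skin of the whole ear from female mice aged 8 weeks was profiled on 4 Affymetrix Mouse Gene 1.0 ST arrays, 1 for each combination of genotype and treatment. EKO IMQ skin came from mice with an epithelial Traf6 knockout (Traf6EKO) that received imiquimod (IMQ) cream, 10 mg daily for 2 days, on the ear, and f/f IMQ skin from Traf6f/f mice given the same cream. EKO untreated and f/f untreated skin came from the same genotypes without IMQ. The Traf6f/f controls carry floxed Traf6 alleles. The series title calls the deletion keratinocyte-specific, and the sources used here do not name the promoter that drives it. The series' text gives n = 2, and the sources used here do not say whether 2 mice were pooled on an array. With 1 array per group, the differences below have no replicate check and no p-value, and the number of arrays limits the precision.

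SPRR proteins are precursors of the cornified envelope, the protein shell that replaces the plasma membrane of a dying keratinocyte. Transglutaminases cross-link their glutamine- and lysine-rich ends to loricrin, involucrin and one another, and the number of proline-rich repeats between the ends sets the length of the bridge. The genes lie together in the epidermal differentiation complex on mouse chromosome 3, and several are known to be raised in wounded and psoriatic skin. TRAF6 is an adaptor that passes IL-1, IL-17 and Toll-like receptor signals to NF-kB and MAP kinases, and IMQ is a TLR7 agonist that provokes psoriasis-like inflammation in mouse skin.

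Values are the deposited log2 levels, and a difference of 1 is 2-fold. A gene was counted as higher or lower when it differed at least 2-fold and reached the median of all named genes (6.93 to 6.98, here the floor) on at least 1 array of the comparison. Array medians over all probe sets lay between 6.52 and 6.57 and array maxima between 13.7 and 13.8. Traf6 itself had levels of 9.35 in EKO IMQ and 9.30 in f/f IMQ skin, and 9.65 in EKO untreated and 9.51 in f/f untreated skin, so its probe set did not separate the genotypes, and the sources used here do not say whether it lies in the deleted part. The keratinocyte markers were present on every array, with mean levels of 10.95 to 11.12 over 7 basal and 12.02 to 12.46 over 5 suprabasal genes. In whole skin, fewer cells of a type and less RNA per cell cannot be told apart.

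Promoter windows of 8 of the 10 members, from 250 bases before to 50 after the start site, were matched in RefSeq (build GRCm38.p6), and Sprr2g and Sprr2j-ps had none. The stretches around the AP-1 motif are shown. It was in the window of 5 of 5 Sprr2 members with one, as were the C/EBP, octamer and TATAAA motifs described below. AP-1 is the dimeric Jun and Fos factor, and its site was searched as TGANTCA, which reads alike on both strands. Capitals mark the first match in the window, and each stretch is written 5′ to 3′ on the strand of its gene. Sprr2k, a family gene outside the listed members, is added for comparison. Sprr2b, another such gene, also holds an AP-1 match and is not shown.
Sprr2d (chr3:92338927-92338973, + strand): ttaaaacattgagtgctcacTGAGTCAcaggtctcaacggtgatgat
Sprr2e (chr3:92351930-92351976, + strand): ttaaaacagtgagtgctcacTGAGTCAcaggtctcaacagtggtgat
Sprr2f (chr3:92364970-92365016, + strand): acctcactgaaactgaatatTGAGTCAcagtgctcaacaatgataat
Sprr2h (chr3:92385467-92385513, + strand): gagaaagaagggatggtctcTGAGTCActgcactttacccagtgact
Sprr2i (chr3:92407778-92407824, + strand): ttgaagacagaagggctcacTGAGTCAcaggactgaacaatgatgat
Sprr1b (chr3:92438864-92438910, - strand): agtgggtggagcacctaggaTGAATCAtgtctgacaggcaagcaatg
Sprr1a (chr3:92486001-92486047, - strand): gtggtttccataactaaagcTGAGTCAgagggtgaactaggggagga
Sprr2k (chr3:92432366-92432412, + strand): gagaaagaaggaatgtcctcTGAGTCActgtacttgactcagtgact

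In the Sprr2 members the motif began between -198 and -193 bases from the start site. Sprr1b held 1 site at -111, Sprr1a held 2 at -146 and -116, and Sprr3 held none. The 7 of 8 members with a match compare with 7.79% of 32544 distinct windows of the same length in the RefSeq table. An NF-kB type motif, GGG and CC set 5 bases apart on either strand, was found in Sprr2d, Sprr2e and Sprr2f and in 51.0% of all windows. A C/EBP motif, TTNNGNAA on either strand, was in 7 of 8 members, Sprr1b being the exception, and in 40.7% of all windows.

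The 250 bases before the start sites of Sprr2e, Sprr1b and Sprr1a are given whole, as examples of the patterns described below. Capitals mark AP-1 sites, the octamer ATTTGCAT and TATAAA, none of which overlap.
Sprr2e (chr3:92351893-92352142, + strand): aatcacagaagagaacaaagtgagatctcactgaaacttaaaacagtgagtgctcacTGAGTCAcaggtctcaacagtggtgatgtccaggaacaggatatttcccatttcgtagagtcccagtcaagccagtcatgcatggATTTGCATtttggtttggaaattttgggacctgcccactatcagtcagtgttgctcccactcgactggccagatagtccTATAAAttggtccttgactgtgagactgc
Sprr1b (chr3:92438780-92439029, - strand): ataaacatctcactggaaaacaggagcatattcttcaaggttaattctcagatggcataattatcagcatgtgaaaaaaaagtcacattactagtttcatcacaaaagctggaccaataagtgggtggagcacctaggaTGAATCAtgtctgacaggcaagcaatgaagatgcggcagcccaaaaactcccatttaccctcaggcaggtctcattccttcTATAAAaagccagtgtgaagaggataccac
Sprr1a (chr3:92485882-92486131, - strand): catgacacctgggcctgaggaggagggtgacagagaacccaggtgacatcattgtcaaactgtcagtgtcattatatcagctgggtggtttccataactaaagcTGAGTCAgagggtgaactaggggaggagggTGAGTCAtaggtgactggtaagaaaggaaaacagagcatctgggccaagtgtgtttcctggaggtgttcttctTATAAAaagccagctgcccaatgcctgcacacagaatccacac

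The octamer, a POU factor motif, and TATAAA were chosen for the search after these windows had been read. The octamer began between -112 and -108 in all 5 Sprr2 windows and was absent from the windows of Sprr1a, Sprr1b and Sprr3. It was in 1.75% of all windows. TATAAA was in all 8 member windows and in 13.6% of all. Sprr2 windows were 59.4% to 88.7% identical to one another (median 73.0%, 10 pairs), and 45.4% to 52.0% identical to those of Sprr1a, Sprr1b and Sprr3 (median 47.9%, 15 pairs). A match is a description of letters and not of a factor bound there.

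**Figure D1:**
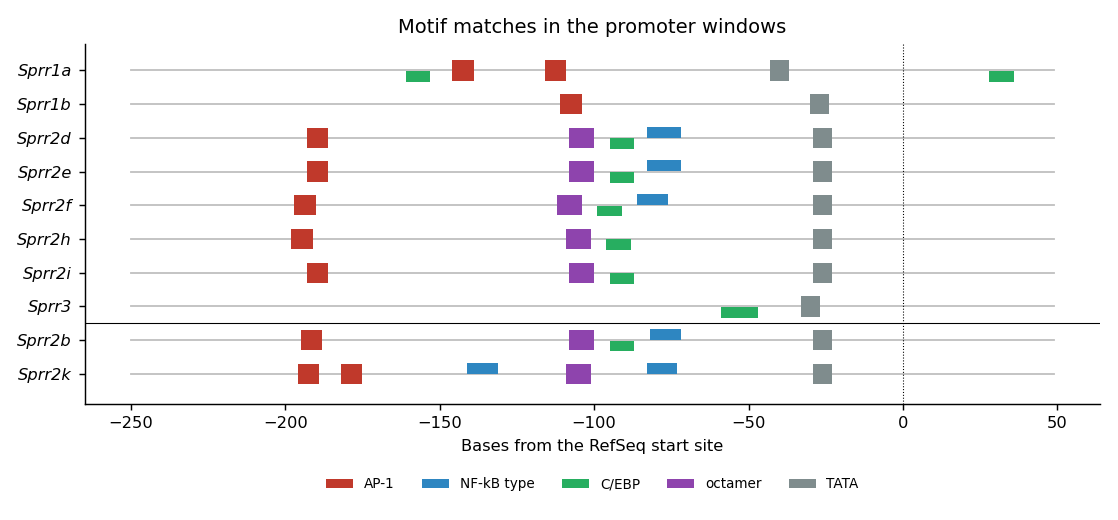
Position of AP-1, NF-kB type, C/EBP, octamer and TATA motif matches in the promoter windows of the SPRR genes, in bases from the start site (x axis), with 1 row per gene. The AP-1 match of the Sprr2 members sits between -198 and -193, and that of Sprr1b at -111.

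IMQ was given to both genotypes, and the first question is how far each SPRR gene differed from untreated skin in each. In EKO skin, 4 of the 10 members were higher with IMQ and 0 were lower, against 0.671% higher and 0.0972% lower among 10285 genes tested. In f/f skin, 8 of the 10 were higher and 0 were lower, against 3.82% higher and 2.63% lower among 10548 genes. The counts rest on 5 members that passed the floor in EKO and 9 in f/f. Sprr2f, Sprr2g, Sprr2i and Sprr2j-ps reached the floor on the f/f IMQ array alone, so they passed through the array on which they were high. With the floor required on both arrays of a comparison, 2 members were called higher in EKO and the same 2 in f/f, Sprr1b and Sprr2d.

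Most of the difference lay in the 7 Sprr2 members and Sprr1b. The Sprr2 median IMQ difference was 1.36 in EKO (2.57-fold) and 3.98 in f/f (15.7-fold). Over all genes tested the medians were -0.01 and 0.01. The levels of the 7 spanned 4.50 to 9.46 in EKO IMQ skin, where 3 of 7 reached the floor, and 7.33 to 11.32 in f/f IMQ skin, where 7 did. In untreated skin 1 of 7 reached the floor in either genotype, with spans of 3.97 to 7.85 in EKO and 4.15 to 7.60 in f/f. How far levels under the floor stand above background is not known, so differences that rest on them, the medians included, are of uncertain size.

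Sprr2e had levels of 8.19 in EKO IMQ and 10.99 in f/f IMQ skin, and 6.50 in EKO untreated and 6.46 in f/f untreated skin. The untreated arrays were low and alike, the EKO IMQ array was intermediate and the f/f IMQ array was high. Sprr2d, another envelope precursor and the Sprr2 member present above the floor on all 4 arrays, read 9.46 in EKO IMQ and 11.32 in f/f IMQ skin, and 7.85 in EKO untreated and 7.60 in f/f untreated skin. It kept the same order of arrays, with IMQ differences of 1.61 in EKO (3.05-fold) and 3.72 in f/f (13.2-fold).

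Sprr2f, studied in the mouse uterus as an oestrogen-responsive gene, had levels of 6.36 in EKO IMQ and 9.37 in f/f IMQ skin, and 5.28 in EKO untreated and 5.21 in f/f untreated skin. Sprr2g, annotated in RefSeq as a transcribed pseudogene, read 6.56 in EKO IMQ and 9.18 in f/f IMQ skin, and 5.20 in EKO untreated and 4.76 in f/f untreated skin. For both, 3 of the 4 arrays lay below the floor and only the f/f IMQ array above it. Without the floor they would also be counted in EKO, with IMQ differences of 1.08 and 1.36, which makes 6 members.

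Sprr2h stood closest to Sprr1b among the Sprr2 members. Its levels were 8.30 in EKO IMQ and 9.15 in f/f IMQ skin, and 6.58 in EKO untreated and 5.76 in f/f untreated skin, so both IMQ arrays were high and the genotypes were 1.80-fold apart with IMQ. Its IMQ difference was 1.72 in EKO (3.30-fold), the largest of any member in that genotype, and 3.38 in f/f (10.4-fold).

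Sprr2i and Sprr2j-ps differed by less than 2-fold between IMQ and untreated EKO skin. Sprr2i had 4.93 in EKO IMQ and 7.33 in f/f IMQ skin, and 4.50 in EKO untreated and 4.73 in f/f untreated skin. Sprr2j-ps, annotated as a pseudogene like Sprr2g, had 4.50 in EKO IMQ and 8.13 in f/f IMQ skin, and 3.97 in EKO untreated and 4.15 in f/f untreated skin. Only the f/f IMQ array stood above the other arrays for these genes, with IMQ differences of 0.43 (Sprr2i) and 0.54 (Sprr2j-ps) in EKO, and of 2.60 and 3.98 in f/f.

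**Figure D2:**
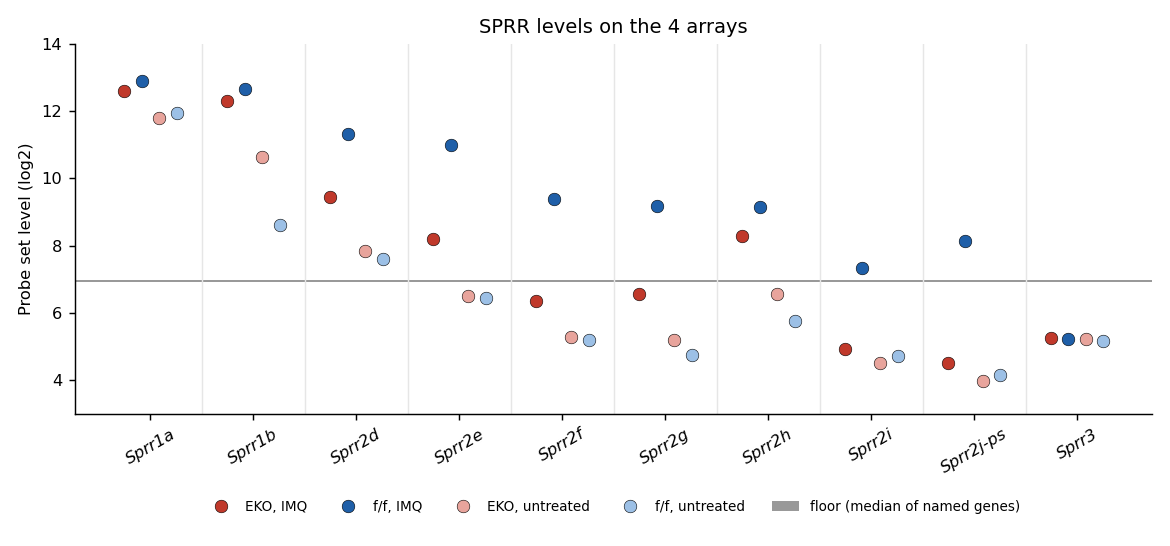
Log2 level (y axis) of each of the 10 SPRR members on the 4 arrays, 1 point per array, with the floor of 6.93 to 6.98 as a grey band. The f/f IMQ array is the highest for every Sprr2 member and for both Sprr1 members, and Sprr3 lies below the floor on all 4 arrays.

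The Sprr1 members did not follow one pattern. Sprr1a, a precursor also known as an injury-induced gene of neurons, was high everywhere, with 12.59 in EKO IMQ and 12.91 in f/f IMQ skin, and 11.80 in EKO untreated and 11.96 in f/f untreated skin. Its IMQ differences of 0.79 in EKO (1.73-fold) and 0.95 in f/f (1.93-fold) stayed under the 2-fold threshold in both. The levels were close to the array maxima of 13.7 to 13.8, and whether high signals were compressed was not tested.

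Sprr1b, also called cornifin, had 12.31 in EKO IMQ and 12.66 in f/f IMQ skin, and 10.65 in EKO untreated and 8.62 in f/f untreated skin. Both IMQ arrays were high and alike, and the untreated arrays were apart, with f/f the lowest. The IMQ difference was 1.66 in EKO (3.17-fold) and 4.04 in f/f (16.5-fold), the 19th highest of 10285 genes and the 13th highest of 10548. Sprr3, the envelope precursor of oral and oesophageal epithelium, read 5.25 in EKO IMQ and 5.22 in f/f IMQ skin, and 5.23 in EKO untreated and 5.17 in f/f untreated skin. It was below the floor and flat on all 4 arrays.

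For each of the 8 members called in f/f, the IMQ difference in EKO was divided by that in f/f. The IMQ differences of the genotypes share no array. The share was 41.1% for Sprr1b. Among the Sprr2 members at the floor in EKO IMQ skin it was 51.0% for Sprr2h, 43.2% for Sprr2d and 37.3% for Sprr2e. The median share over all 403 genes called higher in f/f was 42.6%. Those genes were not limited to ones at the floor in EKO IMQ skin, so their median is not a like comparison for these members. The other Sprr2 members, which were under the floor on both EKO arrays, gave 30.8% for Sprr2g, 25.9% for Sprr2f, 16.4% for Sprr2i and 13.5% for Sprr2j-ps, and these values are not set against the other genes.

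**Figure D3:**
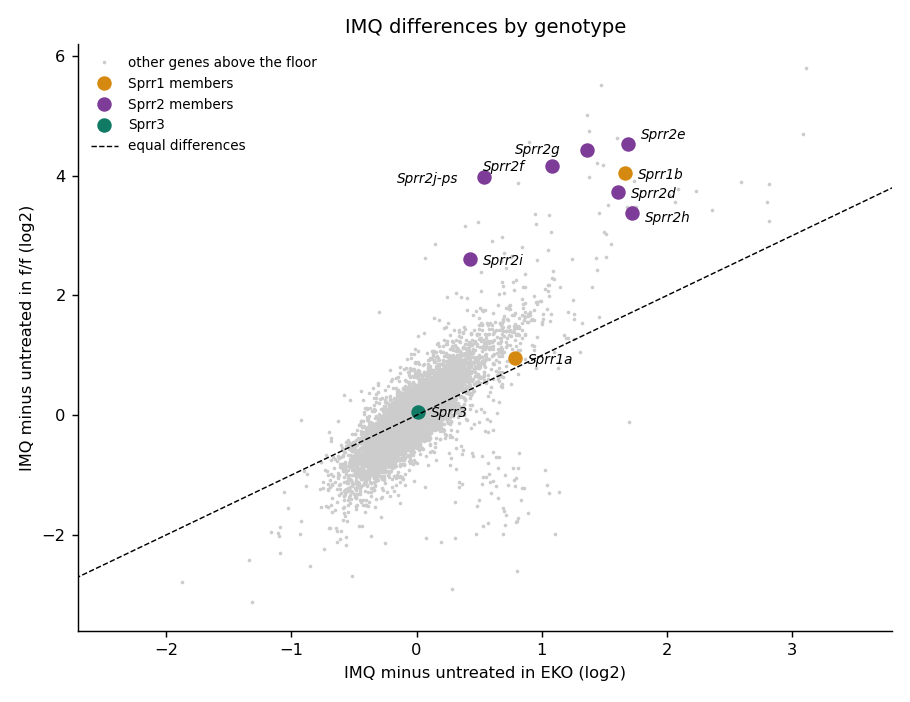
IMQ minus untreated difference (log2) in EKO skin (x axis) against f/f skin (y axis), with 1 point per gene above the floor and the SPRR members coloured. The 7 Sprr2 members and Sprr1b lie above the dashed line of equal differences, while Sprr1a and Sprr3 lie near it.

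Setting EKO against f/f skin with IMQ, 0 of the 10 members were higher and 6 were lower, against 0.418% higher and 0.875% lower among 10282 genes. All 6 were Sprr2 genes, and 9 of 10 members passed the floor. Of the 6, Sprr2f, Sprr2g, Sprr2i and Sprr2j-ps passed only through the f/f IMQ array, and with the floor required on both arrays 2 were called, Sprr2d and Sprr2e. Sprr2e differed by -2.80 (6.97-fold lower in EKO) and Sprr2d by -1.86 (3.62-fold lower). Sprr2h, also at the floor on both IMQ arrays, differed by -0.85 (1.80-fold), under the threshold. The members under the floor in EKO IMQ skin differed by -3.62 (Sprr2j-ps), -3.01 (Sprr2f), -2.62 (Sprr2g) and -2.40 (Sprr2i), and these sizes rest on EKO levels of 4.50 to 6.56. The median over the 7 was -2.62, against -0.01 over all genes tested.

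With IMQ, Sprr1a differed between the genotypes by -0.32 and Sprr1b by -0.35, 2.31 and 2.27 above the Sprr2 median and above each of the 7 Sprr2 values. That median includes Sprr2f, Sprr2g, Sprr2i and Sprr2j-ps, which were under the floor in EKO IMQ skin, so the size of these gaps is uncertain. Over the Sprr2 members at the floor on both IMQ arrays the median was -1.86, nearer to the Sprr1 values. Sprr1a and Sprr1b were near the array maxima with IMQ, between 12.31 and 12.91, so the limit on high signals given for Sprr1a holds for Sprr1b here too. Sprr3 differed by 0.03.

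Setting EKO against f/f skin without IMQ, Sprr1b was the 1 member called, and it was higher. Among 10200 genes, 0.0686% were called higher and 0.324% lower. Only 3 of the 10 members passed the floor there: Sprr1a, Sprr1b and Sprr2d. The Sprr1b difference of 2.03 (4.09-fold) was the highest of the 10200 genes. Sprr2d, the 1 Sprr2 member past the floor, differed by 0.26. The Sprr1b value was also 1.96 above the Sprr2 median of 0.07 and above all 7 Sprr2 members. The other Sprr2 values, and with them the median, rest on levels under the floor, so that gap is of uncertain size. Sprr2h, at 0.81, had the next highest value among members but lay under the floor on each untreated array, and Sprr2g had 0.44. Sprr1a differed by -0.15.

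**Figure D4:**
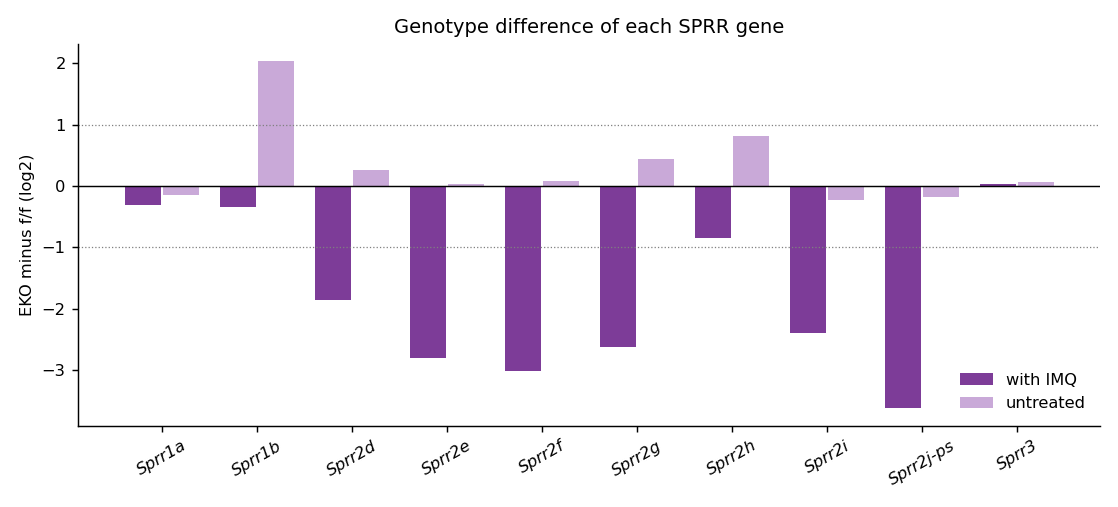
EKO minus f/f difference (log2) of each SPRR member with IMQ and without IMQ, with the line at 0 as no difference. With IMQ the 7 Sprr2 members run from -3.62 to -0.85 and the Sprr1 members lie at -0.32 and -0.35, and without IMQ Sprr1b alone passes 2-fold, at 2.03.

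The IMQ difference in EKO minus that in f/f was called lower for 8 of 10 members and higher for 0, against 1.18% lower and 1.06% higher among 10646 genes. With the floor required on all 4 arrays, 2 members were called lower, Sprr1b and Sprr2d. Sprr1b (-2.38) and the Sprr2 members (median -2.84) were among the 8, and Sprr1a (-0.16) and Sprr3 (-0.04) were not. The arrays on which the genotypes were apart were not the same for both. For Sprr1b EKO minus f/f was -0.35 with IMQ and 2.03 without it. Its levels with IMQ were near the array maxima, and whether high signals were compressed was not tested. For Sprr2d, above the floor on all 4 arrays, EKO minus f/f was -1.86 with IMQ and 0.26 without it. For Sprr2e it was -2.80 with IMQ and 0.04 without it, with both untreated levels under the floor.

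The family genes outside the listed members were read by their own or by shared probe sets. Sprr2b had 5.82 in EKO IMQ and 8.22 in f/f IMQ skin, and 4.17 in EKO untreated and 4.19 in f/f untreated skin, with IMQ differences of 1.66 in EKO and 4.03 in f/f (16.3-fold). Sprr2k had 6.0 in EKO IMQ and 6.04 in f/f IMQ skin, and 5.81 in EKO untreated and 5.63 in f/f untreated skin, below the floor on all 4. Sprr2b thus ran with the Sprr2 members, but it reached the floor on the f/f IMQ array alone, so its differences are of uncertain size. Sprr2k, under the floor throughout, did not run with them. The Sprr2k window holds AP-1, NF-kB type and octamer motifs and no C/EBP match. The part of these motifs in the differences was not tested. Sprr4 had 9.37 in EKO IMQ and 9.97 in f/f IMQ skin, and 8.71 in EKO untreated and 9.74 in f/f untreated skin, and was 2.04-fold lower in EKO without IMQ. Another 3 probe sets carry several SPRR symbols, and since close paralogs could be read together on them no gene is named from these. Whether the single-symbol probe sets read transcripts of other Sprr2 genes was not tested.

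Of 5 transglutaminases, the enzymes that cross-link the envelope, 0 were higher with IMQ in EKO and 3 in f/f. Tgm1, the main keratinocyte transglutaminase, differed by 0.24 in EKO and 1.24 in f/f, Tgm3 by 0.50 and 1.62, and Tgm5 by 0.96 and 1.31. A list of envelope precursors and related genes outside the 10 members had 19 measured genes, Sprr4 among them. Of these, 0 were higher with IMQ in EKO and 2 in f/f. These were Cnfn, which encodes cornifelin (0.46 in EKO, 1.20 in f/f), and Casp14, the protease of filaggrin breakdown (0.94 in EKO, 1.58 in f/f). Involucrin (Ivl) differed by 0.56 in EKO and 0.94 in f/f, and loricrin (Lor) by 0.02 and -0.18. The list medians were 0.12 in EKO and 0.23 in f/f.

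The late cornified envelope genes split by cluster. Of 5 LCE3 genes, known for their rise in psoriasis and wounds, 3 were higher with IMQ in EKO and 4 in f/f, with medians of 1.60 and 3.51. Of the 4, Lce3f reached the floor on the f/f IMQ array alone. Lce3a resembled the Sprr2 members, with 7.78 in EKO IMQ and 10.43 in f/f IMQ skin, and 6.17 in EKO untreated and 5.80 in f/f untreated skin. Lce3c resembled Sprr1b, with 11.80 in EKO IMQ and 12.32 in f/f IMQ skin, and 10.27 in EKO untreated and 8.81 in f/f untreated skin. Of 13 LCE1 genes, 0 were called in any of the 5 comparisons, with median IMQ differences of 0.15 in EKO and 0.06 in f/f. Lce6a, the 1 measured gene of the LCE2 list, differed by 0.18 in EKO and 0.45 in f/f.

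The stress keratins, made by activated keratinocytes, were higher in both genotypes, 3 of 4 in EKO and 4 of 4 in f/f. Krt16 differed by 3.09 in EKO and 4.69 in f/f, Krt6a by 2.81 and 3.85, and Krt6b by 2.36 and 3.43. In EKO the median share of the f/f difference was 70.8%. Of 21 targets of IL-17-type cytokines, 4 were higher in EKO and 15 in f/f, and 11 were lower in EKO than in f/f with IMQ. The shares of all genes tested were 0.671%, 3.82% and 0.875%, in that order. Among the targets counted, Defb4, Defb14, Cxcl2 and Il1b reached the floor on the f/f IMQ array alone. Defb3, a beta-defensin, differed by 1.48 in EKO and 5.52 in f/f, with both untreated levels under the floor.

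Among 13 epidermal S100 genes, 2 were higher with IMQ in EKO and 4 in f/f, led by S100a8 (1.36 in EKO, 5.01 in f/f) and S100a9 (1.37 in EKO, 4.74 in f/f). S100a7a, also counted in f/f, reached the floor on the f/f IMQ array alone. Of 6 filaggrin-type genes, 2 were higher in EKO, and 1 was higher and 2 lower in f/f. Rptn, which encodes repetin, differed by 2.80 in EKO and 3.56 in f/f, and Tchh, which encodes the hair follicle protein trichohyalin, by 1.06 and -1.30. Of 30 measured keratinocyte transcription factors, 0 were higher with IMQ in EKO and 4 in f/f. They were Fosl1 (0.53 in EKO, 1.75 in f/f) and Junb (0.24 and 1.01), which are AP-1 subunits, the ETS factor Ehf (0.27 and 1.34) and Ovol1 (0.40 and 1.11), a zinc finger repressor. In untreated skin 1 of the 30, the AP-1 subunit Fosb, was higher in EKO, by 1.04.

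Some neutrophil markers were higher with IMQ, more of them in f/f than in EKO. Of 8, 3 were higher with IMQ in EKO and 5 in f/f, and 4 were lower in EKO than in f/f with IMQ. The shares of all genes tested were 0.671%, 3.82% and 0.875%, in that order. The summed level of the 8 markers was 10.08 in EKO IMQ and 12.61 in f/f IMQ skin, and 9.42 in EKO untreated and 9.21 in f/f untreated skin. S100a8 and S100a9 lead this sum in f/f IMQ skin and are also made by keratinocytes. The receptor genes of the list were called in f/f too, with IMQ differences of 0.15 in EKO and 2.86 in f/f for Trem1, 1.05 in EKO and 2.76 in f/f for Cxcr2, and 0.22 in EKO and 1.45 in f/f for Csf3r. Trem1 and Csf3r, both among the 4 lower in EKO with IMQ, reached the floor on the f/f IMQ array alone. For Cxcr2, EKO minus f/f was -0.78 with IMQ and 0.93 without it. Mmp9, above the floor on all 4 arrays, differed by -0.25 in EKO and 0.04 in f/f, and Ly6g and Mmp8 were below the floor on all 4. Hair shaft keratins moved otherwise, with a mean level over 7 genes of 8.04 in EKO IMQ and 7.20 in f/f IMQ skin, and 7.42 in EKO untreated and 8.03 in f/f untreated skin. Adipocyte markers were lower with IMQ, 1 of 6 in EKO and 5 of 6 in f/f, with median differences of -0.45 in EKO and -1.50 in f/f. Their summed level was 12.16 in EKO IMQ and 11.77 in f/f IMQ skin, and 12.60 in EKO untreated and 13.18 in f/f untreated skin. Of 7 skeletal muscle markers, 0 were lower in EKO and 3 in f/f, with medians of -0.33 in EKO and -0.88 in f/f. Their summed level was 13.69 in EKO IMQ and 13.23 in f/f IMQ skin, and 13.96 in EKO untreated and 14.13 in f/f untreated skin. All 6 adipocyte and all 7 muscle markers lay on the same side of 0 in each of these comparisons. The part of these cell populations in the SPRR differences was not tested.

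The listed members sit within 61 genes of the complex from S100a9 to S100a11 in RefSeq gene order, 50 of them measured. Of the 40 measured genes outside the members, 6 were higher with IMQ in EKO and 9 in f/f, against 0.671% and 3.82% of all genes tested. Of the 40, 33 passed the floor in EKO and 35 in f/f. The family genes Sprr2b, Sprr2k and Sprr4 are among the 40, and Sprr2b is among the 9. The medians over the 40 were 0.26 in EKO and 0.28 in f/f, against 1.22 and 3.85 over the 10 members. The 7 Sprr2 members are consecutive and flanked by Sprr2b and Sprr2k, followed by Sprr1b, Sprr3 and Sprr1a in that order. Sprr3, flat on all arrays, thus lies between Sprr1b and Sprr1a. The genes called higher in f/f at a distance were S100a9, the peptidoglycan recognition genes Pglyrp4 (0.66 in EKO, 2.03 in f/f) and Pglyrp3 (0.70 in EKO, 2.04 in f/f), 4 LCE3 genes and Rptn.

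**Figure D5:**
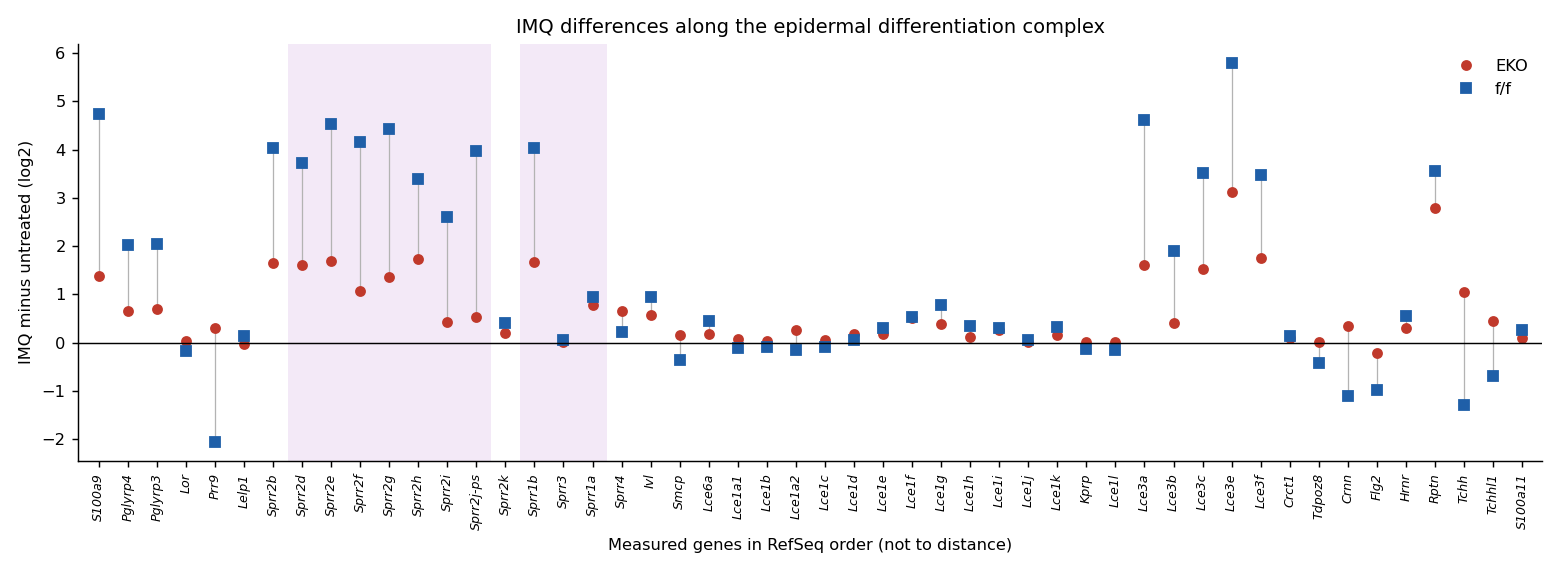
IMQ minus untreated difference (log2, y axis) in EKO and f/f skin for the measured genes of the epidermal differentiation complex, in RefSeq gene order along the x axis. The SPRR block and the LCE3 block hold most of the high values, and no gene between them reaches 2-fold in either genotype.

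Over the 4 arrays, the profile nearest to the mean of the Sprr2 members among 10333 genes outside the family, by root mean square distance between centred log2 levels, was that of Csta3, a stefin A-type cystatin gene (distance 0.159). Il1b, the cytokine interleukin-1 beta (0.162), Has3, a hyaluronan synthase (0.234), Cstdc6, a cystatin domain gene (0.238), and Epgn, the EGF receptor ligand epigen (0.247), came next. Csta3, Il1b, Has3 and Cstdc6 reached the floor on the f/f IMQ array alone, as did Sprr2f, Sprr2g, Sprr2i and Sprr2j-ps. The likeness of these genes therefore rests on a single high array and on levels under the floor. Nearest to Sprr1b were Lce3c (0.267), the kallikrein peptidase gene Klk6 (0.344) and Krt6b (0.428), each higher in EKO than in f/f untreated skin by 1.46, 1.15 and 0.83. Sprr2h lay at 0.489 from Sprr1b and Sprr1a at 1.26. Nearest to Sprr1a were Fcgr1, an Fc receptor gene (0.055), Cemip (0.062) and E2f7 (0.067). Nearest to Sprr3 were Slx4, Sdhc and Zfp251, at distances of at most 0.0046 over the 4 arrays.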

How the data were processed

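Mouse Gene 1.0 ST arrays were hybridised with RNA of whole ears, 1 for each of 4 groups, which were assigned by sample title. The authors deposited log2 levels per probe set, made with RMA per the submitters' processing notes, which range from 2.58 to 13.8. RMA equalises the distributions of the arrays, so a shift of most genes one way would not be seen. The sources used here do not give the software version. Of 35556 probe sets, 21789 have 1 gene symbol in the platform annotation, 1621 several and 12146 none. The probe set with the highest mean stood for each of 19938 genes.

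Log2 differences were taken for 5 comparisons, and a gene was called at 2-fold if its level reached the floor, the array's median over named genes, on any array compared. No p-value was computed. All members are named, with up to 4 genes per list that have the largest difference and others a sentence needs, the 5 genes nearest to Sprr2, the 3 nearest to each other SPRR gene, and Traf6. The members and lists were chosen with earlier results of these data known. The call rule was tested on simulated data. Python 3.11.15, numpy 2.4.6, pandas 2.3.3, matplotlib 3.10.9 and, for other scalings, limma 3.58.1 in R 4.3.3 were used. Promoter windows are RefSeq sequences of GRCm38.p6, aligned globally in pairs (match 1, mismatch -1, gap opening -3, extension -0.5). Protein sequences were not analysed here.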

Additional observations from a re-analysis of the deposited data

Results flagged for a closer look

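Opposite signs of the EKO minus f/f difference with and without IMQ drew attention to 7 family genes, and the change of sign was not tested, since each group is 1 array. Sprr1b differed by -0.35 with IMQ and 2.03 without it. Sprr2h differed by -0.85 with IMQ and 0.81 without it. Sprr2d differed by -1.86 and 0.26, Sprr2e by -2.80 and 0.0385, Sprr2f by -3.01 and 0.075, and Sprr2g by -2.62 and 0.44, with IMQ and without it in that order. Sprr2k, below the floor on all arrays, differed by -0.044 with IMQ and 0.18 without it. For Sprr2e and Sprr2f the untreated values are close to 0, and for Sprr2k the value with IMQ is.

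The 3 probe sets with several SPRR symbols, outside the comparisons, were higher with IMQ than without it in f/f skin. The one with 4 symbols had 13.10 in EKO IMQ and 13.17 in f/f IMQ skin, and 12.42 in EKO untreated and 12.34 in f/f untreated skin, and its IMQ difference in f/f was 0.83. The other 2 have 2 symbols and identical values, with 12.16 in EKO IMQ and 12.35 in f/f IMQ skin, and 11.02 in EKO untreated and 10.68 in f/f untreated skin, and IMQ differences of 1.14 in EKO (2.20-fold) and 1.67 in f/f (3.17-fold). Their EKO minus f/f difference with IMQ was -0.19.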

How the results depend on the processing

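The 250 recomputed differences of single members (median centring, quantile and cyclic loess scaling, and other probe set rules, which change nothing where a gene has 1 probe set) kept their sign and their side of 2-fold, with the widest range over scalings, 0.187, for Sprr1a with IMQ in f/f. Of the other recomputed values, 263 stayed and 32 moved. A value stayed if it changed by less than 0.1 or kept its sign within a ratio of 1.5, and a count if unchanged or within that ratio. The Sprr2 median of EKO minus f/f with IMQ thus stayed at -1.86 with the floor on every array (-2.62 otherwise). The values that stayed include those of other probe set rules, which leave SPRR levels unchanged. With the floor required on every array, members called higher with IMQ fell to 2 in EKO (4 otherwise) and 2 in f/f (8), members lower in EKO with IMQ to 2 (6) and for the difference of differences to 2 (8), and list genes to 5 and 20 higher and 1 lower with IMQ (12, 35 and 2), 8 lower in EKO with IMQ (14) and 10 lower for the difference of differences (23), fewer genes being tested. The untreated Sprr2 median was then 0.26, from Sprr2d alone (0.07 otherwise). At 1.5-fold, list genes numbered 23 higher and 1 lower with IMQ in EKO, 5 lower in f/f, 5 higher and 24 lower in EKO with IMQ, 11 higher and 4 lower untreated, and 37 lower for the difference of differences. At 4-fold, 0 members were higher in EKO, and list genes numbered 5 higher in EKO, 20 higher and 0 lower in f/f, 0 higher in EKO than in f/f with IMQ, 0 in either direction untreated, and 1 higher and 12 lower for the difference of differences. With the mean in place of the median of the Sprr2 members, Sprr1b lay 0.46 (0.30) above it in EKO, 0.21 (0.07) in f/f and 0.25 (0.46) for the difference of differences. Cyclic loess put Sprr1b at -0.0377 in f/f (0.07), and quantile scaling gave 2 list genes lower untreated (1). No paired analysis was possible because each group has 1 array, and no array could be left out. The protein comparison was not run. Intensities and background were not analysed here, so how far low levels stand above background is not known.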
